A study of Mus musculus with 6 samples.

Results

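The nuclear genes of the mitochondrial respiratory chain and of ATP synthase were compared between CD4 T cell samples labelled AMPK KO and WT. Members were taken by gene symbol, as symbols that begin with Nduf (assembly factors left out), the Sdh genes, Uqcr genes, Cox4 to Cox8 genes and Atp5 genes, which gave 81 of the 23282 genes listed. By symbol, 37 fell to complex I, 4 to complex II, 8 to complex III, 15 to complex IV and 17 to complex V. The rule also took Ndufa4l2, Atp5s and Atp5sl, whose products are not subunits of the complexes named by their symbols. It placed Ndufa4, now known as a subunit of complex IV, with complex I. The rule missed Cox4i1, Cyc1, Cox7a2l, Usmg5 and 2010107E04Rik, whose values are given after the members. The 26 symbols searched for subunits encoded by mitochondrial DNA were not found in the gene lists used here.

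The respiratory chain is a series of protein complexes in the inner mitochondrial membrane. Complex I takes electrons from NADH and complex II takes them from succinate, complex III passes them on to cytochrome c, complex IV hands them to oxygen, and complex V, the ATP synthase, uses the proton gradient to make ATP. Most subunits are encoded in the nucleus, and a few in mitochondrial DNA. T cells raise both glycolysis and respiration once they are activated. AMPK is a kinase that senses a low energy state of the cell and is known to promote mitochondrial turnover and biogenesis.

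RNA was sequenced from 3 WT samples (Prkaa1fl/fl CD4Cre-neg) and 3 AMPK KO samples, in which CD4Cre acts on the same floxed Prkaa1 alleles, which encode the α1 catalytic subunit of AMPK, so that both groups carried the floxed gene. The mice were C57BL/6, and the methods describe females of 6 to 8 weeks. CD4Cre is active from the CD4 CD8 double-positive stage in the thymus, and it therefore also acts in CD8 T cells. Spleen and lymph nodes were the source of the cells, which were kept at rest for 1 h before anti-CD3 and anti-CD28 were added at 2 µg/mL, for 24 h by the labels and for 6 h by the methods. Nothing says how many mice gave a sample, so p-values measure only the spread between these samples. In bulk RNA, fewer cells of a type and less RNA per cell cannot be told apart.

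Reads recovered from the deposited values came to 9575096 to 11185360 per library. Rn45s, the precursor of ribosomal RNA, took 20.7% to 24.9% of them in WT and 8.48% to 10.8% in AMPK KO. All 5 tested T cell markers were read, with Cd3d at 8.88 to 9.54 and Cd4 at 6.14 to 6.83 on the log2 scale, but Cd8a was also at 6.48 to 7.08. Prkaa1 itself overlapped between the groups, with 4.64, 5.24 and 4.86 in WT and 4.08, 4.72 and 4.67 in AMPK KO (log2 fold change −0.43 ± 0.25 (SE), adjusted p = 0.357 by limma, n = 3 per group). The fold change of Prkaa1 was smaller in size without AMPK KO 1 or without WT 2. The position of its 3′ reads relative to the deleted part was not tested. The libraries also divided within each genotype. WT 2, AMPK KO 1 and AMPK KO 3 deviated one way, and WT 1, WT 3 and AMPK KO 2 the other.

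Values are given as the deposited log2 of normalized CPM (reads scaled to a common library size) plus 1. They come from the 3′ ends of transcripts and were not divided by gene length. Of the members, 75 averaged at least 1 across the 6 libraries and were tested within a limma fit of 11279 genes, where a gene was called at a Benjamini-Hochberg adjusted p under 0.05. The tested members comprised all 37 of complex I, 3 of complex II, 8 of complex III, 11 of complex IV and 16 of complex V. The other 6 are accounted for beside their complexes.

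Most subunit genes had a small positive fold change in AMPK KO, and 72 of the 75 tested were not called. The adjusted threshold was passed by 3 members, Uqcrb, Cox7c and Cox6a2, all higher in AMPK KO, which is 4.0% of the 75 beside 2.54% of all tested genes. No member was called lower, beside 3.1% of all tested genes, and none was lower at an unadjusted p under 0.05, beside 10.7% of all tested genes. At that level 18 of the 75 members were higher, beside 10.6% of all tested genes. The fold change was positive for 55 of the 75 members and for 5777 of the 11279 genes. Its median was 0.17 over the members and 0.015 over all tested genes. Without AMPK KO 2, 38 of the 75 members were positive and their median was 0.057. After the correction for transcript length given below, 35 were positive and the median was −0.013. The SE of a single member ranged from 0.14 to 0.49.

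Some marker lists of T cells and of other cells differed between the genotypes and others did not. The 5 T cell markers had negative fold changes, with Cd3e and Cd3g called lower and Cd3d and Cd4 overlapping between the groups, and summed to 1166 to 1256 normalized CPM in WT and 792 to 1082 in AMPK KO. The 3 plasma cell markers had positive fold changes, with Jchain called higher and Sdc1 overlapping, at 82.4 to 83.5 in WT and 363 to 440 in AMPK KO. No marker of either list was at 0 in a library. The 4 neutrophil markers had negative fold changes, with Ltf called lower, at 724 to 807 in WT and 481 to 711 in AMPK KO. Of the NK cell markers, 2 were tested, both positive and with Klrk1 called, and the list summed to 5.97 to 14 in WT and 18.8 to 30.5 in AMPK KO, with Ncr1 at 0 in some libraries of both genotypes. The 2 CD8 T cell markers were positive and not called, at 231 to 305 and 321 to 376. None of the 4 B cell and 6 erythroid markers tested was called (Ms4a1 alone, lower, had an unadjusted p under 0.05), their sums overlapped between the genotypes, and the myeloid markers are given beside Cox6a2. By the methods, CD4 T cells were taken with magnetic beads or a cell sorter, a step meant to remove other cells. The part of such cells in the members' values was not tested.

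In 16 members every AMPK KO sample was above every WT sample (21.3%, beside 11.6% of all tested genes). In no member was every AMPK KO sample below every WT sample (14% of all tested genes). These 16 were Cox6a2, Cox7c, Cox5a and Cox6a1 of complex IV, Uqcrb and Uqcrq of complex III, Atp5b, Atp5h, Atp5f1 and Atp5l of complex V, and Ndufa8, Ndufb4, Ndufc2, Ndufa6, Ndufa9 and Ndufs3 of complex I. Their fold changes ran from 0.18 for Ndufs3 to 1.81 for Cox6a2.

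**Figure D1:**
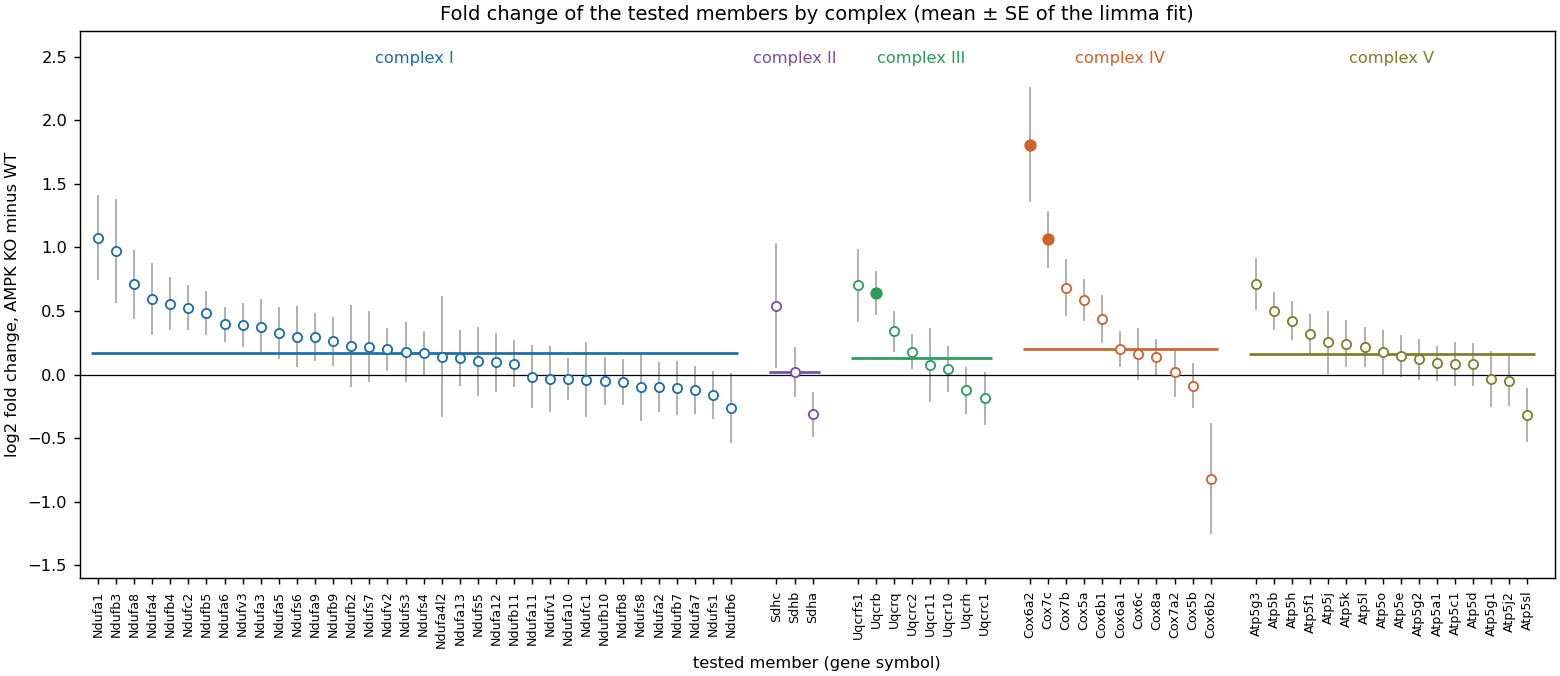
Log2 fold change of AMPK KO against WT for the tested members drawn, sorted within complexes I to V, with the SE of the limma fit as vertical lines. Filled points mark the 3 members that were called (Uqcrb, Cox7c and Cox6a2), and the horizontal lines are the medians of each complex, from 0.022 in complex II to 0.20 in complex IV.

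Members had short transcripts. They had a median transcript length of 861 bases, against 2895 over all tested genes, and across the 11200 genes with an annotated length the fold change correlated with length at a Spearman rho of −0.19. Across the 75 members alone this rho was −0.14, and across the 6117 of these genes with a mean of at least 4 it was −0.30. After each library was corrected for length, the median of the members was −0.013, that of all tested genes −0.035, and 35 of the members were positive. The part of length in the members' fold changes was not tested beyond this correction.

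Promoter sequences are shown for 4 members to set the called Cox7c and Ndufa1, with the largest fold change in complex I, beside Cox6a1 and Atp5l, which hold motifs that respiratory genes are known to share. The known regulators are NRF-1, the ETS factor GABP and YY1. Their motifs were searched as GCATGCGC for NRF-1, CCGGAAG for ETS and AAGATGGC for YY1, on both strands, in RefSeq promoters of GRCm38.p6 from 250 bases before to 50 after the gene start. The NRF-1 motif overlaps its own reverse complement, and the end of the ETS motif overlaps the beginning of the YY1 motif. Each line runs 5′ to 3′ on the strand of the gene and ends before the earliest annotated start, and capitals mark a match on either strand.
Cox7c, chr13:86046905-86047045, minus strand: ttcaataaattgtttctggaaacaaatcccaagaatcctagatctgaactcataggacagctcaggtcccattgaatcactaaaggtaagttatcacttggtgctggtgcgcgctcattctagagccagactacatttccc
Ndufa1, chrX:37191239-37191488, minus strand: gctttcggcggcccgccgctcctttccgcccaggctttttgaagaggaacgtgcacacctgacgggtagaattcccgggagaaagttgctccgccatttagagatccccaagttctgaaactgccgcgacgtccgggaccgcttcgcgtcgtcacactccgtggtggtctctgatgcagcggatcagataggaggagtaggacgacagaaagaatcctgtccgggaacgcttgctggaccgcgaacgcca
Cox6a1, chr5:115348982-115349208, minus strand: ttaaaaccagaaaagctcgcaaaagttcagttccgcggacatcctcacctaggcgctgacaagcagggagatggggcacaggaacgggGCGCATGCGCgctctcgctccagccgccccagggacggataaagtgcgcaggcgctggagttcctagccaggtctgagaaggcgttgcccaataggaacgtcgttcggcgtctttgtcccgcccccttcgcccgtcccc
Atp5l, chr9:44920743-44920992, minus strand: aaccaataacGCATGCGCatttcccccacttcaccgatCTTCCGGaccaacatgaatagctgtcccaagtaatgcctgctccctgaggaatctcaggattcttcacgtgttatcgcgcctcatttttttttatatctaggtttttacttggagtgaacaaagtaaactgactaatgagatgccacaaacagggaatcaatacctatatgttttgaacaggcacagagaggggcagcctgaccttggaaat

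Promoter entries were matched for 68 of the 81 members. The NRF-1 motif was found in 10 of these (14.7%, beside 3.05% of 27025 genes), the ETS motif in 16 (23.5%, beside 9.93%) and the YY1 motif in 11 (16.2%, beside 3.19%). At least one of the 3 motifs was in 31 members (45.6%, beside 14.9%). In 9 of the 11 members with a YY1 match it lay after the start on the strand of the gene, 22 to 38 bases downstream in those members, as compared to 280 of 862 genes with a YY1 match overall (32.5%). The tested members that held a motif had a median fold change of 0.16 (30 members) and those without any had one of 0.18 (33 members). Windows of this length without these letters say nothing about the binding of a factor.

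Complex I is the entry point for NADH, and its 37 members had a median fold change of 0.17, with 25 positive and 12 negative and 0 called. At an unadjusted p under 0.05, 8 were higher and 0 lower, beside the 10.6% and 10.7% of all tested genes. The most positive fold change was that of Ndufa1, a small accessory subunit of the membrane arm. Its log2 values were 3.69, 4.82 and 3.76 in WT 1 to 3 and 5.34, 4.53 and 5.63 in AMPK KO 1 to 3. WT 2 was above AMPK KO 2, so that the groups overlapped, and the fold change of 1.08 ± 0.33 (SE) missed the limma threshold (adjusted p = 0.0733). It was called without WT 2 (1.44, adjusted p = 0.0180) and without AMPK KO 2 (1.40, adjusted p = 0.00750). Without WT 1, WT 3, AMPK KO 1 or AMPK KO 3 it was not called (adjusted p = 0.299, 0.270, 0.252 and 0.195). Nor was it called after the length correction (0.178). Ndufb3, another accessory subunit, was read at 4.18, 5.60 and 4.35 in WT and at 5.86, 4.69 and 6.50 in AMPK KO. The same samples, WT 2 and AMPK KO 1 and 3, were the high ones, and the fold change was 0.97 ± 0.41 (adjusted p = 0.182). Ndufb3 was called without WT 2 (1.42, adjusted p = 0.0440) and without AMPK KO 2 (1.47, adjusted p = 0.00768), and its fold change was 0.56 without AMPK KO 3. Leaving out any other library gave no call.

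Other accessory subunits of complex I had smaller fold changes, and several separated the groups. Ndufa6, a subunit of the LYR protein family, was at 8.15, 8.31 and 8.08 in WT and at 8.48, 8.73 and 8.51 in AMPK KO. Every AMPK KO value was higher, with a fold change of 0.39 ± 0.14 (adjusted p = 0.112). After the length correction it was 0.16 (adjusted p = 0.499). Ndufc2, a membrane arm subunit, was at 5.48, 5.72 and 5.62 in WT and 6.13, 6.33 and 5.95 in AMPK KO. Its groups did not overlap either (0.52 ± 0.18, adjusted p = 0.097). Ndufa8, which has twin CHCH motifs, was at 4.67, 5.12 and 3.94 in WT and 5.23, 5.16 and 5.47 in AMPK KO, and the lowest AMPK KO sample was just above WT 2 (0.71 ± 0.27, adjusted p = 0.144). Without WT 2 it was called (0.98, adjusted p = 0.0442), and without WT 3 it was 0.39. Ndufb5 was at 6.62, 7.05 and 6.46 in WT and at 7.02, 7.33 and 7.22 in AMPK KO (0.48 ± 0.17, adjusted p = 0.121, and called without WT 2 at 0.0377). Its exons overlap those of Mrpl47, on the opposite strand, by 616 bases, and how reads were assigned by strand is not given in the sources used here.

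Of the conserved core subunits of complex I, 6 are described here, and 0 of them were called. Ndufs1, the iron-sulfur subunit at the tip of the matrix arm, was at 6.06, 5.91 and 5.55 in WT and 5.84, 5.69 and 5.51 in AMPK KO (−0.16 ± 0.19). Ndufv1, which holds the FMN and the NADH site, was at 6.28, 5.38 and 5.99 in WT and at 5.78, 6.38 and 5.39 in AMPK KO (−0.034 ± 0.26), and its partner Ndufv2 was at 5.93, 5.99 and 5.89 and at 6.24, 6.27 and 5.91 (0.20 ± 0.17). In these 3 genes the groups overlapped, and each difference was close to or below its SE. Ndufs7, which carries the last iron-sulfur cluster before ubiquinone, had a fold change of 0.22 ± 0.28. Ndufs3 and Ndufs8 had 0.18 ± 0.23 and −0.098 ± 0.27. The adjusted p of the 6 ranged from 0.534 for Ndufv2 to 0.960 for Ndufv1. The most negative fold change in complex I was that of Ndufb6 (4.20, 4.22 and 4.38 in WT, 3.89, 4.47 and 3.66 in AMPK KO), at −0.26 ± 0.27 (adjusted p = 0.632). It was −0.085 without AMPK KO 3 and −0.49 without AMPK KO 2.

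Complex II, succinate dehydrogenase, works in both the respiratory chain and the TCA cycle and is the only complex with no subunit from mitochondrial DNA. With all 6 libraries none of its genes was called or separated the groups. Sdha, the flavoprotein that oxidizes succinate, was at 7.54, 7.36 and 7.07 in WT and 6.90, 7.34 and 6.80 in AMPK KO (−0.31 ± 0.18, adjusted p = 0.337). Sdhb, the iron-sulfur subunit, was at 7.85, 7.37 and 7.36 in WT and 7.49, 7.96 and 7.19 in AMPK KO (0.022 ± 0.20, adjusted p = 0.966). The membrane anchor Sdhc spread widest within a genotype, with 3.26, 4.21 and 3.28 in WT and 4.65, 2.68 and 5.05 in AMPK KO. Both the lowest and the highest of its 6 values were from AMPK KO, and the fold change was 0.54 ± 0.49 (adjusted p = 0.564). Without AMPK KO 2 it was 1.27 and was called (adjusted p = 0.0177), and without AMPK KO 3 it was 0.080. The other anchor, Sdhd, was too low to be tested, with 0.00, 0.38 and 0.00 in WT and 0.88, 0.00 and 1.33 in AMPK KO, or at most 18 reads in a library.

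In complex III, which oxidizes ubiquinol, 6 of 8 members were positive and Uqcrb was called. Uqcrb encodes a small subunit near the ubiquinone site (chr13:66900617-66905378, minus strand, mm10). Its log2 values were 5.71, 5.94 and 5.70 in WT 1 to 3 and 6.37, 6.62 and 6.29 in AMPK KO 1 to 3. The AMPK KO samples all lay above the WT samples, and the gap between WT 2 and AMPK KO 3 was larger than the range within either group. The mean rose from 5.78 ± 0.13 to 6.43 ± 0.18 (SD, n = 3), a 1.56-fold change (log2 0.64 ± 0.17, limma adjusted p = 0.0396). Gm10767 overlaps 50 of its exon bases on the opposite strand, and it had only 5 to 33 reads in a library. Uqcrb lost its call when any of WT 1, WT 3, AMPK KO 1 and AMPK KO 2 was left out, with adjusted p of 0.163, 0.167, 0.131 and 0.0501. It also missed the threshold with scaling to reads outside Rn45s (0.0565), with no filter (0.0681), with voom on recovered reads (0.0512) and after correction for GC content (0.0505) or length (0.147). The same held with the replicate number as a block (0.1435).

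The Rieske and core proteins of complex III were not called with all 6 libraries. Uqcrfs1, the Rieske iron-sulfur protein, was at 5.11, 5.95 and 5.15 in WT and 6.10, 5.50 and 6.73 in AMPK KO, and AMPK KO 2 lay below WT 2 (0.70 ± 0.29, adjusted p = 0.172). Without AMPK KO 2 it was called, at 1.01 (adjusted p = 0.0133), and without AMPK KO 3 the fold change was 0.39. The core protein Uqcrc1 was at 6.55, 6.17 and 6.41 in WT and at 5.86, 6.65 and 6.06 in AMPK KO (−0.19 ± 0.21, adjusted p = 0.644). The other core protein, Uqcrc2, was at 7.30, 7.32 and 7.48 and at 7.48, 7.66 and 7.52 (0.18 ± 0.14, adjusted p = 0.487). Uqcrh, the hinge protein, had the highest mean of the complex, with 9.55, 9.23 and 9.60 in WT and 9.13, 9.79 and 9.09 in AMPK KO (−0.12 ± 0.18, adjusted p = 0.747).

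Complex IV, cytochrome c oxidase, contributed 2 of the 3 called members and had the highest median fold change of the 5 complexes, at 0.20. Of its 11 tested members, 9 were positive. Cox7c (chr13:86044816-86046904, minus strand, mm10) encodes a small membrane subunit. Its values were 5.03, 5.78 and 5.30 in WT and 6.45, 6.09 and 6.77 in AMPK KO. All AMPK KO samples were above all WT samples, and the mean rose from 5.37 ± 0.38 to 6.43 ± 0.34 (SD, n = 3), 2.09-fold (log2 1.06 ± 0.22, limma adjusted p = 0.0137). The call was lost without WT 1 (adjusted p = 0.105), WT 3 (0.0847) or AMPK KO 1 (0.0738), with no filter (0.0584) and after the length correction (0.0538). It was also lost with the replicate number as a block (0.0950).

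Cox7c has a near-identical copy. Gm10012 is identical to it over 198 bases near the 3′ end, and was listed with its own values, at 3.50, 5.29 and 3.72 in WT and 6.10, 4.70 and 6.64 in AMPK KO (1.64 ± 0.46, adjusted p = 0.0516). How reads were split between both genes is not known. Summed on the linear scale and logged again, the pair was at 5.43, 6.54 and 5.69 in WT and 7.27, 6.54 and 7.70 in AMPK KO. In the sum, WT 2 and AMPK KO 2 were level, while the other libraries stayed apart, and the means differed by 1.29 on the log2 scale.

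Cox6a2, the heart and skeletal muscle form of subunit 6a, was the other called member of complex IV (chr7:128205435-128206387, minus strand, mm10). It was at 1.66, 3.43 and 2.24 in WT and 4.75, 3.44 and 4.57 in AMPK KO, from 20, 98 and 33 reads and from 307, 106 and 270 reads. AMPK KO 2 was almost level with WT 2. The fold change was 1.81 ± 0.45 on the log2 scale (3.50-fold, adjusted p = 0.0322). It was not called without WT 1, WT 3, AMPK KO 1 or AMPK KO 3, with adjusted p of 0.169, 0.137, 0.168 and 0.0649, nor with no filter (0.121), with voom (0.0638) or after the length correction (0.0605). Nor was it called with the replicate number as a block (0.144). Cox6a2 lies within the span of Itgad, a macrophage integrin gene on the opposite strand, and the annotated exons of both share 70 bases.

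Itgad was at 1.85, 2.93 and 2.10 in WT and at 4.79, 2.98 and 4.89 in AMPK KO, close to the values of Cox6a2 in every library. Its fold change was 1.93 ± 0.47 (adjusted p = 0.0294). How reads were counted by strand and position is not given, so how they were divided between both genes is not known. All 5 myeloid markers had positive fold changes, and Csf1r and Cd68 were called higher (adjusted p = 0.0197 and 0.00585). Adgre1 missed the threshold (adjusted p = 0.0546), and Lyz2 and Itgam overlapped between the groups (0.198 and 0.702). The summed level of the 5 markers was 200 to 253 normalized CPM in WT and 342 to 629 in AMPK KO. This sum, most of which is Csf1r, was highest in AMPK KO 2, the AMPK KO sample with the lowest Cox6a2. Of the single markers, Csf1r, Cd68 and Adgre1 were highest in AMPK KO 2, whereas Lyz2 (2.13, 4.03 and 2.78 in WT, 4.30, 3.31 and 4.41 in AMPK KO) and Itgam (2.89, 2.0 and 2.83 in WT, 3.0, 2.68 and 2.90 in AMPK KO) were lowest there among the AMPK KO samples. The part of these cells in the value of Cox6a2 was not tested.

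**Figure D2:**
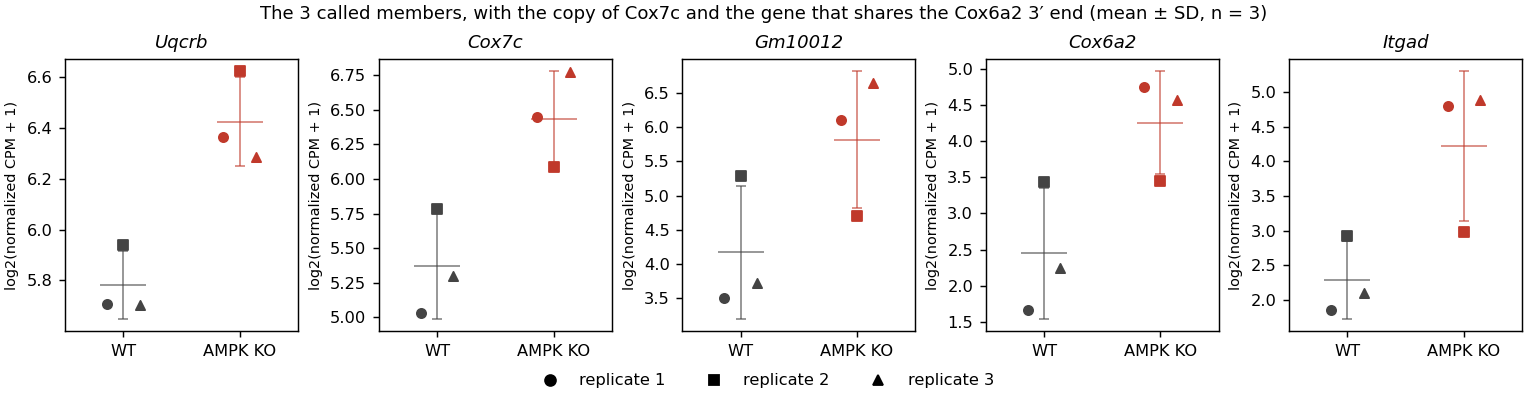
Log2 of normalized CPM plus 1 for Uqcrb, Cox7c and Cox6a2, with Gm10012, the copy of Cox7c, and Itgad, which overlaps Cox6a2. Each point is a sample (symbols mark the replicate number), horizontal bars are means and error bars are SD (n = 3), and each panel has its own vertical axis. Itgad (4.79, 2.98 and 4.89 in AMPK KO) follows Cox6a2 (4.75, 3.44 and 4.57).

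The widely expressed partners of the tissue-dependent isoforms of complex IV were not called with all 6 libraries. Cox6a1 was at 7.43, 7.37 and 7.40 in WT and 7.45, 7.74 and 7.61 in AMPK KO, without overlap but by only 0.20 ± 0.14 (adjusted p = 0.438). Cox7a2 was at 7.99, 7.64 and 8.04 and at 7.84, 8.36 and 7.53 (0.019 ± 0.19, adjusted p = 0.968), and Cox8a at 6.92, 7.14 and 7.01 and at 7.08, 7.22 and 7.19 (0.14 ± 0.14, adjusted p = 0.620). Cox6b1 was at 6.40, 6.90 and 6.21 in WT and 6.88, 7.11 and 6.82 in AMPK KO (0.44 ± 0.18, adjusted p = 0.188). It was called without WT 2 (0.64, adjusted p = 0.0463), and was 0.29 without WT 3. Cox6b2, its testis form, had the most negative fold change of all members, with 1.76, 2.68 and 2.58 in WT and 1.98, 0.95 and 1.63 in AMPK KO. Its groups overlapped through WT 1 and AMPK KO 1 (−0.82 ± 0.44, adjusted p = 0.303).

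Among the muscle and testis isoforms, Cox7a1 was not tested, at 0.00, 1.38 and 0.00 in WT and 0.00, 0.25 and 0.94 in AMPK KO. Cox8b, Cox8c and Cox7b2 had 0 reads in all 6 libraries. Among the other small subunits, Cox5a, which sits on the matrix side, was at 5.80, 5.94 and 5.90 in WT and 6.29, 6.65 and 6.46 in AMPK KO. Its groups were well apart, yet the adjusted p of 0.0514 missed the threshold (0.59 ± 0.17). Cox5a was called with quantile normalization (adjusted p = 0.0443), with a minimum mean of 3 (0.0448) and with robust spread (0.0491). It was not called when any single library was left out (adjusted p of 0.0644 to 0.190). Nor was it called with scaling to reads outside Rn45s (0.0741), with no filter (0.0756) or after the length correction (0.36, adjusted p = 0.207). Cox7b was at 5.60, 6.47 and 5.79 in WT and 6.80, 6.28 and 6.83 in AMPK KO, with WT 2 above AMPK KO 2 (0.68 ± 0.23, adjusted p = 0.0908). It was called without WT 2 (adjusted p = 0.0181) and without AMPK KO 2 (0.0132). Without WT 1, WT 3, AMPK KO 1 or AMPK KO 3 it was not called (adjusted p = 0.361, 0.298, 0.300 and 0.190). Pet117, an assembly factor of complex IV, was the only gene of the assembly lists that was called, and it fell (3.88, 3.46 and 2.98 in WT, 1.85, 1.14 and 1.98 in AMPK KO; −1.78 ± 0.39, adjusted p = 0.0176).

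Complex V couples proton flow to ATP synthesis. Of its 16 tested members, 13 were positive and 0 called, with 3 higher at an unadjusted p under 0.05 and 0 lower, beside 10.6% and 10.7% of all tested genes. Atp5b, the catalytic β subunit, was at 7.11, 7.47 and 7.31 in WT and at 7.77, 7.72 and 7.90 in AMPK KO. All AMPK KO samples were higher (0.50 ± 0.15, adjusted p = 0.0582). Atp5b passed without WT 2 (adjusted p = 0.0423), without AMPK KO 2 (0.0201), with quantile normalization (0.0447) and, just below the threshold, with robust spread. Without WT 1, WT 3, AMPK KO 1 or AMPK KO 3 it did not pass (adjusted p = 0.257, 0.194, 0.187 and 0.160). Nor did it pass with scaling to reads outside Rn45s (0.105). Atp5a1, the α subunit that alternates with β in the catalytic head, was at 7.66, 7.82 and 7.63 in WT and 7.68, 7.85 and 7.84 in AMPK KO, a difference within its SE (0.088 ± 0.14, adjusted p = 0.761).

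Subunit c of the membrane ring is made from 3 genes that encode the same mature protein. Atp5g3 was at 7.26, 7.93 and 7.01 in WT and 8.20, 7.88 and 8.26 in AMPK KO, with WT 2 above AMPK KO 2 (0.71 ± 0.20, adjusted p = 0.0535). It was called without WT 2 (adjusted p = 0.00599), without AMPK KO 2 (0.00958), with quantile normalization (0.0457) and after the GC correction (0.0430). Without WT 1, WT 3, AMPK KO 1 or AMPK KO 3 it was not called (adjusted p = 0.242, 0.270, 0.200 and 0.0970). Atp5g1 was at 5.11, 4.99 and 5.25 and at 4.97, 5.44 and 4.84 (−0.035 ± 0.22, adjusted p = 0.951). Atp5g2 was at 6.55, 6.67 and 6.69 and at 6.60, 7.02 and 6.66 (0.12 ± 0.16, adjusted p = 0.715). Atp5g3 thus had the largest fold change of the 3, but differences between the 3 genes were not tested. Atp5j2, the f subunit, had the highest mean of the complex over the 6 libraries (8.31, 8.0 and 8.27 in WT, 8.01, 8.67 and 7.76 in AMPK KO; −0.047 ± 0.20, adjusted p = 0.922).

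The stalk subunit Atp5h was at 7.80, 7.68 and 7.80 in WT and 8.10, 8.48 and 7.97 in AMPK KO (0.42 ± 0.15, adjusted p = 0.122). Its fold change ran from 0.28 without AMPK KO 2 to 0.53 without AMPK KO 3, and was 0.19 after the length correction. Atp5sl, annotated as Dmac2, is not a subunit of complex V. It had the most negative fold change among these symbols, with 6.37, 5.59 and 5.91 in WT and 5.67, 5.83 and 5.43 in AMPK KO (−0.31 ± 0.21, adjusted p = 0.426). The fold change of Atp5sl was −0.11 without WT 1 and −0.50 without WT 2. Atp5s was too low to be tested, at 1.45, 0.93 and 0.54 in WT and 0.74, 1.14 and 0.33 in AMPK KO. Without Atp5sl and Ndufa4l2 the median over the tested members was 0.18.

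**Figure D3:**
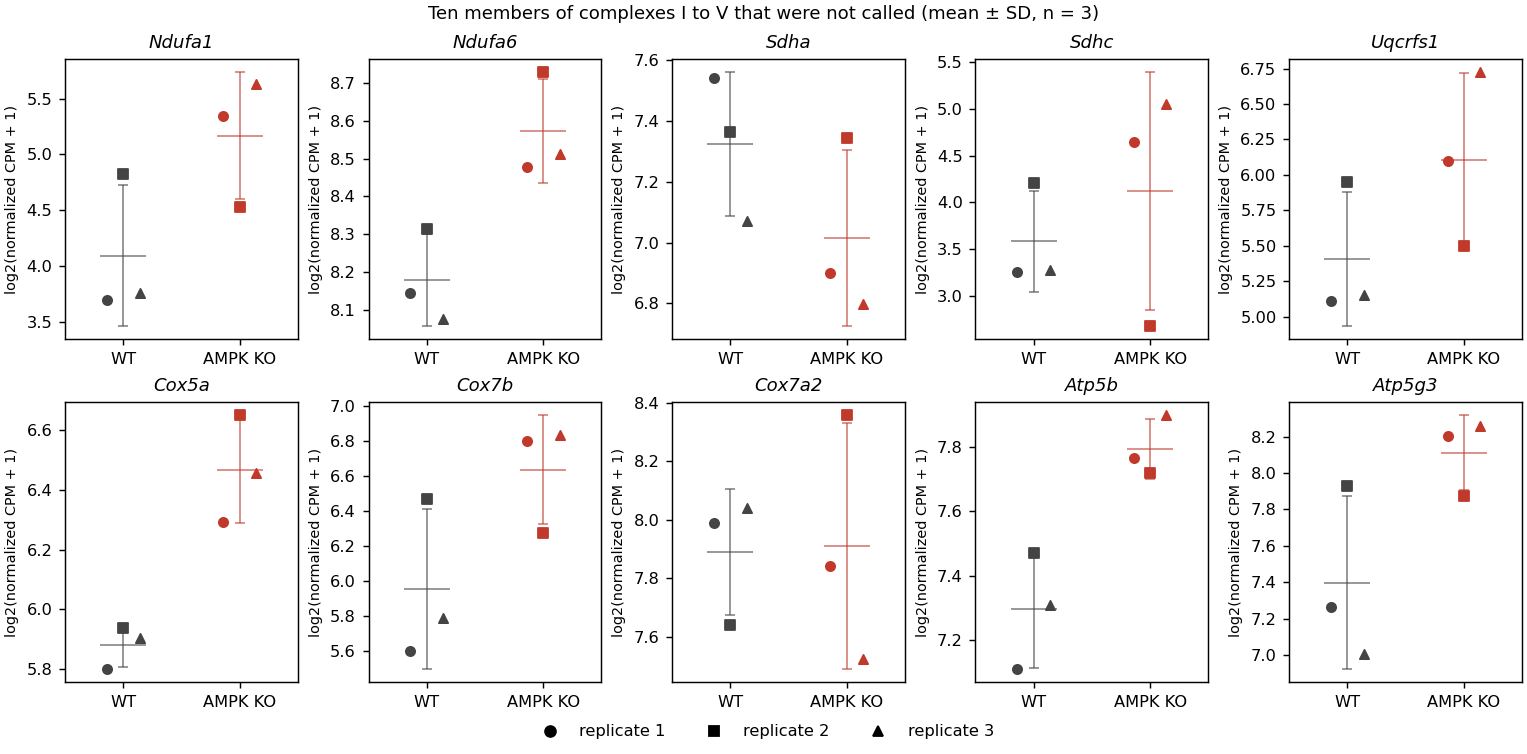
Log2 of normalized CPM plus 1 in each sample for 10 members that were not called, with symbols for the replicate number, means and SD (n = 3), and its own vertical axis for each gene. Cox5a, Atp5b and Ndufa6 separate the groups, Ndufa1, Cox7b and Atp5g3 are raised in WT 2 and lower in AMPK KO 2, and Sdha and Cox7a2 overlap.

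Summed over members, complexes IV and V separated the groups and the others did not. The sum for complex IV was 1102, 1130 and 1128 normalized CPM in WT and 1270, 1555 and 1235 in AMPK KO. For complex V it was 2047, 2094 and 2028 in WT and 2261, 2777 and 2231 in AMPK KO. AMPK KO 2 was the highest library in both. Complex I came to 2467 to 2532 in WT and 2514 to 3388 in AMPK KO, complex III to 1198 to 1376 and 1197 to 1681, and complex II to 305 to 423 and 289 to 415. Over all 81 members the AMPK KO mean was 1.14 times the WT mean. On the scale of reads outside Rn45s this ratio was 1.08, and the groups overlapped, at 8979 to 8993 in WT and 8880 to 10955 in AMPK KO. On that scale complexes IV and V still did not overlap, with 1335 to 1401 against 1465 to 1736 and 2479 to 2596 against 2647 to 3099.

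**Figure D4:**
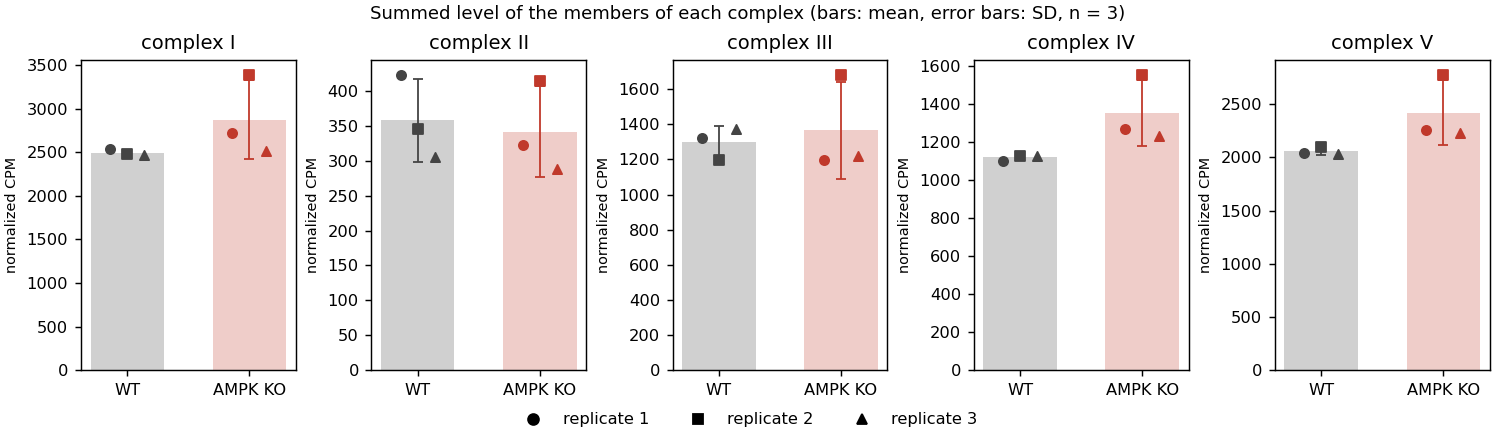
Summed normalized CPM of the members of each complex in every sample (points, with symbols for the replicate number), with the mean as a bar from 0 and the SD as error bar (n = 3). Complexes IV and V do not overlap between WT and AMPK KO, and AMPK KO 2 is the highest AMPK KO sample in each panel.

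The division of the libraries was also seen in these genes. For each member the difference between WT 2 and the mean of WT 1 and 3 was set beside the difference between the mean of AMPK KO 1 and 3 and AMPK KO 2, which share no library. Both were positive in 16 of the 75 members, both negative in 34 and opposite in 25. Across the members Pearson's r was 0.83 and Spearman's rho 0.80, as compared to 0.32 and 0.31 over all tested genes. In other gene lists Pearson's r was 0.88 for the cytosolic ribosomal proteins, 0.79 for the TCA cycle enzymes, 0.73 and 0.65 for the assembly factors of complexes I and IV, 0.51 for the mitochondrial ribosomal proteins, −0.10 for the 6 subunits outside the symbol rule and −0.37 for the 6 assembly factors of complex III. With a mean of at least 4, r was 0.83 over 70 members and 0.53 over 6143 genes. Genes within a library are not independent, and these are descriptions.

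Sdhc, Ndufb3, Cox6a2, Ndufa1 and Ndufa4 had the most positive sums of both differences. For Sdhc the differences were 0.94 in WT and 2.17 in AMPK KO, for Ndufb3 1.34 and 1.48, and for Cox6a2 1.48 and 1.22. Ndufa4 was called only without AMPK KO 2 (0.88, adjusted p = 0.0284). Ndufa4l2 (−1.05 and −0.87), Ndufv1 (−0.76 and −0.79) and Ndufb2 (−0.81 and −0.71) were at the other end. GC content of the last 500 bases, with a median of 49.8% in members and 44.2% in all tested genes, correlated with the mean of both differences. The Spearman rho was −0.42 across members, −0.31 across all genes and −0.39 across genes with a mean of at least 4. The part of GC content in the division was not tested.

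**Figure D5:**
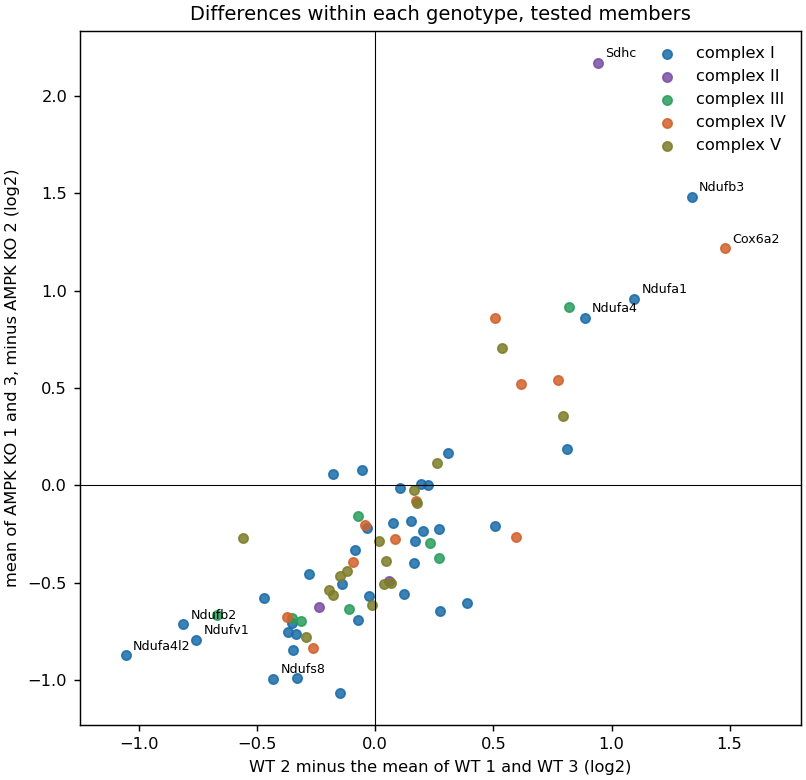
For each tested member, the log2 difference of WT 2 from the mean of WT 1 and 3 (horizontal axis) against the log2 difference of the mean of AMPK KO 1 and 3 from AMPK KO 2 (vertical axis), coloured by complex. The points rise together (r = 0.83 over 75 members), with Sdhc, Ndufb3 and Cox6a2 at the upper right and Ndufa4l2 at the lower left.

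With the division as a term in the limma model, 12 members were called higher (16% of 75, beside 5.89% of all tested genes) and 0 lower (6.77% of all tested genes). They were Ndufa1, Ndufa5, Ndufa6 and Ndufc2 of complex I, Uqcrb of complex III, Cox5a, Cox6a2, Cox7b and Cox7c of complex IV, and Atp5b, Atp5g3 and Atp5h of complex V. The median fold change of the members was 0.22 in this fit. Since the division was taken from these libraries, these counts are not independent of it.

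Subunits outside the symbol rule were few. Of 6 tested, 5 were positive and 0 called, with a median of 0.22. Cox4i1, the largest nuclear subunit of complex IV, was at 7.53, 7.46 and 7.73 in WT and 7.77, 8.33 and 7.40 in AMPK KO (0.26 ± 0.20, adjusted p = 0.490). Cyc1, cytochrome c1 of complex III, was at 5.29, 5.18 and 5.68 and at 4.92, 5.28 and 5.25 (−0.23 ± 0.21, adjusted p = 0.563). Usmg5, a small ATP synthase subunit, was at 5.75, 5.82 and 6.01 in WT and 6.33, 6.44 and 6.24 in AMPK KO, without overlap (0.48 ± 0.16, adjusted p = 0.107). Cycs, the cytochrome c that carries electrons from complex III to IV, was at 6.23, 5.89 and 6.16 in WT and 6.19, 6.75 and 6.25 in AMPK KO (0.31 ± 0.19, adjusted p = 0.368). Cox7a2l, which links complexes III and IV in supercomplexes, was at 8.76, 8.74 and 8.71 and at 8.58, 9.06 and 8.67 (0.034 ± 0.15, adjusted p = 0.926). The values of 2010107E04Rik, which encodes a small ATP synthase protein, were 7.72, 7.50 and 7.47 in WT and 7.65, 8.28 and 7.33 in AMPK KO (0.19 ± 0.20, adjusted p = 0.636). The groups overlapped in these 3 genes.

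Assembly factors help to build the complexes and are not part of them. For complex I, 8 of 13 tested were positive, 0 were called, and the median was 0.032. For complex IV, 16 of 23 were positive with a median of 0.12, and Pet117 was the only one called. None was called among 3 for complex II, 6 for complex III and 4 for complex V with its inhibitor. Atpif1, which inhibits ATP hydrolysis by complex V, was at 6.12, 6.07 and 6.01 in WT and 6.34, 6.68 and 6.37 in AMPK KO (0.40 ± 0.16, adjusted p = 0.178).

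Nuclear regulators of respiratory genes had mostly negative fold changes. Of 12 tested, 11 had a negative fold change, with a median of −0.20, and 0 were called in either direction. At an unadjusted p under 0.05, 3 were lower and 1 higher, beside 10.7% and 10.6% of all tested genes. Yy1 was at 7.08, 7.29 and 7.27 in WT and 6.79, 6.65 and 6.78 in AMPK KO (−0.47 ± 0.15, adjusted p = 0.0701), and Gabpb1, a subunit of GABP, was the positive one, at 5.96, 5.73 and 5.68 and at 6.24, 6.40 and 6.36 (0.54 ± 0.17, adjusted p = 0.0691). Ppargc1b, a coactivator of mitochondrial genes, was at 4.11, 4.58 and 4.65 in WT and 3.99, 3.80 and 3.85 in AMPK KO (−0.57 ± 0.26, adjusted p = 0.219). Ppargc1a was too low to be tested. For comparison, the TCA cycle enzymes had a median of 0.20 over 13 genes with 0 called, the mitochondrial ribosomal proteins 0.094 over 76 with 0 called, and the cytosolic ribosomal proteins 0.24 over 82 with 9 called higher.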

How the data were processed

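Samples were grouped by their labels (3 WT, 3 AMPK KO). The authors deposited one list per sample of log2 values, the log2 of TMM-scaled CPM plus 1 from QuantSeq 3′ reads, and the submitters' processing notes name Bowtie2, bedtools and mm10. The counting step and its use of strand are not given in the sources used here. Whole reads were recovered from the values (100% within 0.1 of a whole number up to 100 reads). The deposited values were used unchanged. Genes with a mean of at least 1 were tested with lmFit and eBayes with a trend in limma 3.58.1 (R 4.3.3), with genotype only, two-sided, with Benjamini-Hochberg adjustment over 11279 genes and a threshold of 0.05. The fit was tested on simulated data. A fold change is on the log2(value + 1) scale and understates low genes. Positions, lengths and GC content of the last 500 bases came from GENCODE M21 (GRCm38, which is mm10), with 98.5% of 23238 symbols matched, and promoters from RefSeq.

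The members and lists were chosen with earlier results of these data known. Named members were those called, the highest, most raised and most lowered of each complex, the core subunits, isoform pairs, catalytic and c subunits, and all of complex II. Members outside this rule are given as counts and ranges. The values of 1 member within it are not reported here, and it is kept in the counts and medians. Ndufb3, Ndufb5, Ndufc2, Ndufa8, Ndufa4, Ndufa4l2, Ndufb2, Ndufa5, Cox5a, Cox7b, Atp5h, Atp5l and Atp5s, and the genes of other lists, were added after their values were seen. The alternatives were quantile normalization, scaling to reads outside Rn45s, a pseudocount of 0.5, no filter or a minimum mean of 3, the replicate number as a block, the omission of single libraries, robust spread, voom on recovered reads and a term for the division of the libraries, and, after seeing the data, loess corrections for GC content and length (span 0.5). Plots used Python 3.11.15 and matplotlib 3.10.9.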

Additional observations from a re-analysis of the deposited data

How the results depend on the processing

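No member was called lower under any alternative run. The 3 members called higher became 6 with quantile normalization, 5 with robust spread, 2 with scaling to reads outside Rn45s, 1 with voom, 12 with the division as a term and 0 with no filter or the length correction. Over all tested genes, 287 were called higher in the fit as reported. This count was 292 with quantile normalization, 334 with robust spread, 235 with scaling to reads outside Rn45s and 227 with voom. It was 664 with the division as a term, 131 with no filter and 232 with the length correction. The 637 genes called became 308 with no filter and 1428 with the division as a term. Reads outside Rn45s as the scale moved the share of calls that were higher from 45.1% to 32.5%. The median fold change of the members, 0.17, was 0.10 with scaling to reads outside Rn45s and −0.013 after the length correction. The cause of these changes was not tested. Leaving out single libraries gave 127 (without WT 1) to 1246 genes (without AMPK KO 2), 0 to 11 members called higher (11 without WT 2, 10 without AMPK KO 2, 2 without AMPK KO 3, 0 without WT 1, WT 3 or AMPK KO 1) and medians of 0.057 (without AMPK KO 2) to 0.22. Genes called higher over all 11279 tested genes were 400 without WT 2, 666 without AMPK KO 2 and 195 without AMPK KO 3. Without WT 1, WT 3 or AMPK KO 1 they were 71, 75 and 72. Same-numbered samples did not deviate together (correlations −0.082, −0.32 and −0.16), and with the replicate block 102 genes and 0 members were called.

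Among the 75 members, 55 were positive, as compared to 51 with scaling to reads outside Rn45s, 35 with the length correction, 65 with the division as a term and 38 without AMPK KO 2. Fold changes that turned sign under an alternative were at most 0.22 in size in the fit as reported. With scaling to reads outside Rn45s, Cox7a2 was −0.050 and Sdhb −0.047. With the GC correction they were −0.041 and −0.017, and with the length correction −0.21 and −0.16. The length correction also gave Ndufs3 −0.012, Cox6a1 −0.030, Cox8a −0.092 and Atp5g2 −0.11. The division as a term gave Atp5j2 0.13, Uqcrh 0.048, Ndufs8 0.14, Ndufv1 0.22 and Atp5g1 0.087. Leaving out single libraries gave Cox7a2 −0.21 to 0.21, Sdhb −0.19 to 0.20, Atp5j2 −0.31 to 0.15, Uqcrh −0.35 to 0.00017, Ndufs7 −0.14 to 0.45, Ndufs8 −0.43 to 0.20, Ndufv1 −0.30 to 0.20, Atp5g1 −0.21 to 0.088 and Atp5g2 −0.010 to 0.20.

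The lowest library of a tested member held 10 reads, so Cox6a2, Cox6b2 and Ndufa4l2 rest on few counts.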
